A study of Homo sapiens with 9 samples.

Results

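The 10 Notch pathway genes described here were chosen by symbol for their roles in Notch signalling, with earlier results of these data known. They were taken from 58920 genes listed in the count files. They are the receptors NOTCH1, NOTCH2 and NOTCH3, the ligands JAG1, JAG2, DLL1 and DLL4, and the targets HES1, HEY1 and NRARP. At least 1 read was counted for 9 of them, and 8 had the 10 counts over all libraries needed for a test, among 19102 genes tested. DLL1 had no count and HEY1 had 0 to 2 counts per library, so neither was tested.

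The samples were 3 lines of LIM1215, a colorectal cancer cell line. LIM1215-R1 and LIM1215-R2 (Resistant_1 and Resistant_2 in the labels) are populations, not single clones, that were selected separately by long exposure to rising concentrations of cetuximab, an antibody against the EGF receptor. LIM1215-parental cells were kept alongside without the antibody. The study describes subpopulations with activating HRAS mutations in both resistant lines, in a different exon in each. RNA came from all lines in basal culture without treatment, in 3 libraries per line and 9 in all. The study's material calls these libraries technical replicates, so the p-values measure the spread between libraries, and a difference between cultures or harvests cannot be told apart from one between lines.

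Total counts ranged from 13737416 to 18725014 per library, and a floor of 3 counts corresponded to between 0.158 and 0.217 CPM (counts per 1000000 counts, scaled by the TMM method of edgeR). Pearson correlations of log2 CPM were between 0.990 and 0.992 within a line and between 0.971 and 0.987 across lines. The 8 epithelial markers summed to between 11821 and 15472 CPM, with KRT20 at 0. The 10 markers of immune, endothelial and stromal cells summed to 11.2 to 14.8 CPM in LIM1215-parental, 15.7 to 17.7 in LIM1215-R1 and 10.8 to 13.4 in LIM1215-R2. PTPRC, CD3E and COL1A2 were at 0 in every library, and the highest level among these markers was CD68, with 14.2 CPM or less.

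Notch receptors are single-pass membrane proteins that are switched on by ligands on neighbouring cells. Ligand binding exposes the receptor to an ADAM protease and then to gamma-secretase, and the freed intracellular domain joins RBPJ and a Mastermind protein on DNA, where it turns on genes such as HES1, HEY1 and NRARP. In the intestine, Notch signalling keeps progenitor cells in the absorptive lineage and holds back ATOH1, the factor that commits cells to secretory fates.

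Compared with LIM1215-parental, both resistant lines carried less JAG1, DLL4 and NRARP RNA and more NOTCH3 RNA. NOTCH1 was lower and HES1 higher in LIM1215-R1, where both also differed from LIM1215-R2. These 2 differences between the resistant lines did not pass when some single libraries were left out. NOTCH1 also passed as lower in LIM1215-R2 in 8 of 19 alternative settings. NOTCH2 and JAG2 did not pass the test in any comparison. Among the other genes of the pathway, HES2, HES4, HES6, HES7, MAML2, PSEN2 and CCND1 were higher in both resistant lines. LFNG, MAML3, APH1B, HEYL, OLFM4, ATOH1, POFUT1, ADAM10, ADAM17, NUMB, DTX4, NCOR1 and CIR1 were lower in both. The values of HEYL and OLFM4 in the resistant lines and of HES7 in LIM1215-parental rest on few counts.

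A gene passed the test when its adjusted p (edgeR's quasi-likelihood test, Benjamini-Hochberg over all genes tested) was 0.01 or less, and it was a differentially expressed gene (DEG) when its log2 fold change was also at least 1.5 in size. In LIM1215-R1 against LIM1215-parental, 6 of the 8 genes tested passed, 2 higher and 4 lower. Of all genes tested, 27.3% passed in that comparison, 14.0% higher and 13.4% lower. In LIM1215-R2 against LIM1215-parental, 4 of 8 passed, 1 higher and 3 lower, against 23.8% of all genes, 12.3% higher and 11.6% lower. Between the resistant lines 2 of 8 passed, with NOTCH1 higher and HES1 lower in LIM1215-R2, against 7.16% of all genes, 3.39% higher and 3.77% lower. None of the 8 was a DEG in any comparison by edgeR or by DESeq2, since no fitted log2 fold change reached 1.5 in size, while 5.14%, 4.82% and 0.764% of all genes were DEGs in these 3 comparisons.

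Most of these genes are abundant, and abundant genes pass more often. A mean of 10 CPM or more, a limit chosen after the data were seen, was reached by 9303 genes. Of these, 40.6% passed in LIM1215-R1, 35.1% in LIM1215-R2 and 11.1% between the resistant lines. The 7 Notch genes in that class gave 5, 3 and 2 passes. The median log2 fold change of the 8 Notch genes was -0.24 in LIM1215-R1, -0.15 in LIM1215-R2 and -0.01 between the resistant lines, and that of all genes tested was -0.01, 0.00 and 0.00.

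**Figure D1:**
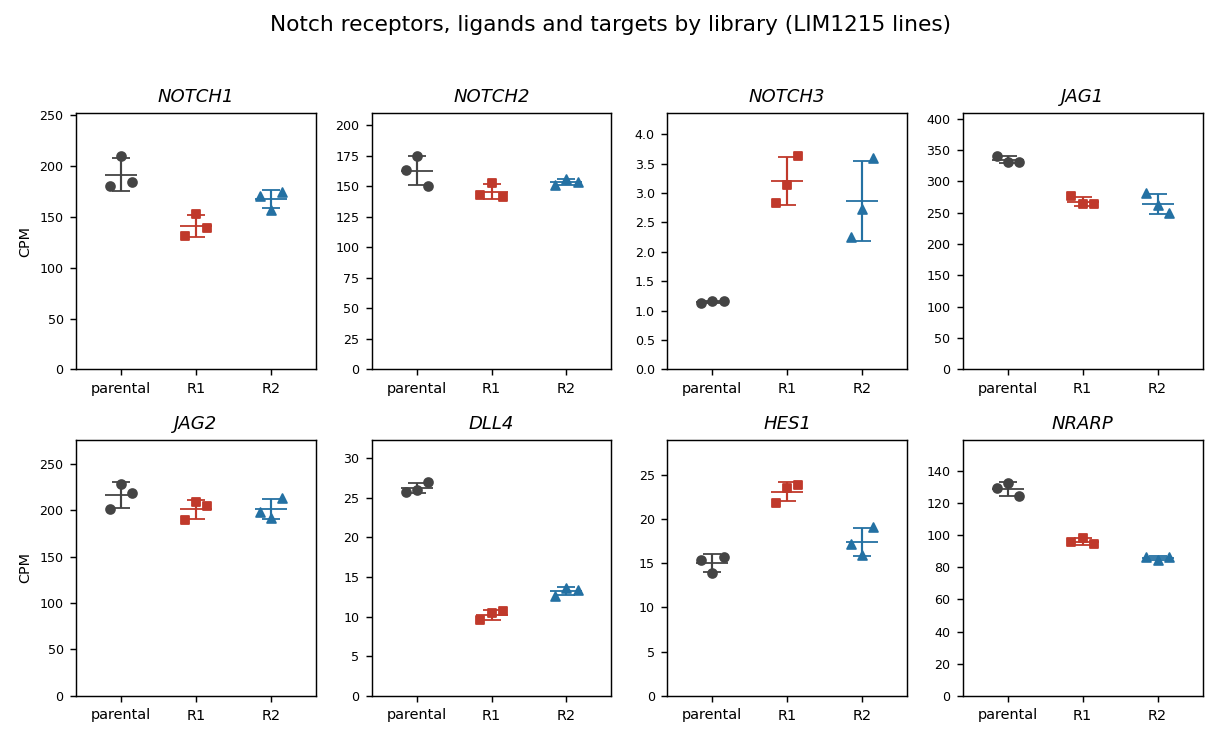
CPM (vertical axes, each from 0) of the 8 Notch genes tested, with 1 point per library, a horizontal bar at the mean and error bars of 1 SD (n = 3 libraries per line). DLL4 lies at 25.8 to 26.9 CPM in LIM1215-parental and at 13.6 CPM or less in all 6 resistant libraries, and NOTCH3 is at 1.16 CPM or less in LIM1215-parental and at 2.26 CPM or more in the resistant libraries.

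Levels of different genes were compared as CPM per kilobase of the MANE Select transcript in GENCODE release 44, which assumes that this transcript carries the reads. In LIM1215-parental the order by mean was JAG1 (56.2 CPM per kilobase), NRARP (48.7), JAG2 (37.4), NOTCH1 (20.0), NOTCH2 (14.2), HES1 (9.52), DLL4 (7.65) and NOTCH3 (0.132), and the ranges of neighbouring genes did not overlap. In LIM1215-R1 the order began with JAG1 (45.0 CPM per kilobase), NRARP (36.3) and JAG2 (34.8), followed by NOTCH1 (14.8), HES1 (14.6), NOTCH2 (12.7), DLL4 (2.99) and NOTCH3 (0.368). There the ranges of NRARP and JAG2 overlapped, and so did those of NOTCH1 and HES1. In LIM1215-R2 JAG2 (34.8 CPM per kilobase) stood above NRARP (32.4), and NOTCH1 (17.5), NOTCH2 (13.4), HES1 (11.0), DLL4 (3.85) and NOTCH3 (0.329) followed, with no overlap between neighbours.

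NOTCH1 encodes the receptor with the highest level per kilobase in each line and lies at chr9:136494433-136546048 on the minus strand (RefSeq annotation of GRCh38.p14, as for all positions here). Its level was 181, 210 and 184 CPM in the 3 libraries of LIM1215-parental, 131, 153 and 140 CPM in LIM1215-R1 and 171, 157 and 175 CPM in LIM1215-R2. The 3 lines did not overlap, with LIM1215-R1 lowest and LIM1215-R2 in between. The mean was 191 ± 16.1 CPM (SD, n = 3) in LIM1215-parental against 141 ± 11.1 in LIM1215-R1, a difference of -0.44 on the log2 scale (SE 0.06, adjusted p = 1.51e-06 by edgeR). In LIM1215-R2 the mean was 168 ± 9.23 CPM, and the log2 fold change of -0.19 did not pass (95% interval -0.31 to -0.07, adjusted p = 0.0153 by edgeR). That value did pass in 8 of 19 alternatives, among them total counts in place of TMM, no filter on low counts, the 6 libraries alone and the fits without replicate 1 of LIM1215-parental or replicate 1 or 2 of LIM1215-R1, and its adjusted p ran from 0.00188 to 0.128 over all 19. Between the resistant lines NOTCH1 was 1.19-fold higher in LIM1215-R2 (log2 0.25, SE 0.06, adjusted p = 0.00668 by edgeR). That last call was lost with at least 10 counts in every library and without replicate 1 or 3 of either resistant line, with an adjusted p of up to 0.0492.

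NOTCH2, the other abundant receptor, lies at chr1:119911553-120069662 on the minus strand. It was at 163, 174 and 150 CPM in LIM1215-parental, 143, 153 and 141 CPM in LIM1215-R1 and 151, 156 and 153 CPM in LIM1215-R2. All 3 lines overlapped. The log2 fold change was -0.16 in LIM1215-R1 (95% interval -0.27 to -0.05, adjusted p = 0.0201 by edgeR) and -0.08 in LIM1215-R2 (-0.19 to 0.03, adjusted p = 0.262), and LIM1215-R2 against LIM1215-R1 gave 0.08 (-0.03 to 0.19, adjusted p = 0.424). The LIM1215-R1 value did pass in 5 of 19 alternatives, among them total counts in place of TMM and the fits without replicate 3 of LIM1215-parental or replicate 2 of LIM1215-R1, with -0.21 as the largest change over the alternatives. NOTCH2 has partial copies in the genome, and reads that match both may be lost or assigned to either. NOTCH2NLA, NOTCH2NLB and NOTCH2NLC had 2.11 CPM or less in every library and NOTCH2NLR at most 2 counts.

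NOTCH3, at chr19:15159038-15200995 on the minus strand, was the scarcest receptor with reads. It was at 1.12, 1.16 and 1.16 CPM in LIM1215-parental (19, 16 and 22 counts), 2.82, 3.14 and 3.63 CPM in LIM1215-R1 and 2.26, 2.72 and 3.59 CPM in LIM1215-R2. Every resistant library was above every parental one, and the resistant lines overlapped. NOTCH3 rose 2.78-fold in LIM1215-R1 (log2 1.48, SE 0.24, adjusted p = 1.34e-05 by edgeR) and 2.48-fold in LIM1215-R2 (log2 1.31, SE 0.24, adjusted p = 9.02e-05 by edgeR). The 2 resistant lines differed by -0.17 (95% interval -0.58 to 0.25). Per kilobase, NOTCH3 made up 0.385% ± 0.0265 (SD, n = 3) of the RNA of the 3 receptors in LIM1215-parental, compared with 1.32% ± 0.178 in LIM1215-R1 and 1.05% ± 0.229 in LIM1215-R2. NOTCH1 had a share of 58.2% ± 1.28, 52.9% ± 1.12 and 56.0% ± 1.70 in the same order. Without replicate 1 of LIM1215-R1, NOTCH3 passed the DEG threshold in that line, the 1 case of a DEG among the 8 genes when a library was left out.

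JAG1, a ligand of the Serrate type and the most abundant of the 10 genes, lies at chr20:10637684-10673999 on the minus strand. It was at 340, 331 and 330 CPM in LIM1215-parental, 276, 263 and 264 CPM in LIM1215-R1 and 281, 262 and 249 CPM in LIM1215-R2. The resistant libraries overlapped each other and were all below the parental ones. JAG1 fell by 0.32 on the log2 scale in LIM1215-R1 (SE 0.05, adjusted p = 2.35e-06 by edgeR) and by 0.34 in LIM1215-R2 (SE 0.05, adjusted p = 1.07e-06), and the resistant lines differed by -0.02 (95% interval -0.11 to 0.08).

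JAG2, the second ligand of that type, at chr14:105140995-105168776 on the minus strand, was at 201, 228 and 219 CPM in LIM1215-parental, 189, 209 and 205 CPM in LIM1215-R1 and 198, 192 and 213 CPM in LIM1215-R2. All lines overlapped. The log2 fold change was -0.10 in both resistant lines (95% interval -0.21 to 0.01 in each, adjusted p = 0.14 and 0.154 by edgeR) and 0.00 between them (-0.11 to 0.11).

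DLL4, a ligand of the Delta type best known from blood vessel sprouting and also made by intestinal epithelium, lies at chr15:40929340-40939073 on the plus strand and gave the largest decrease among the 8 genes. It was at 25.8, 25.9 and 26.9 CPM in LIM1215-parental, 9.57, 10.4 and 10.8 CPM in LIM1215-R1 and 12.7, 13.6 and 13.4 CPM in LIM1215-R2. The 3 lines were fully separate, with LIM1215-R1 lowest. The mean fell from 26.2 ± 0.631 CPM (SD, n = 3) to 10.2 ± 0.614 in LIM1215-R1, a ratio of 0.391 (log2 -1.36, SE 0.09, adjusted p = 1.27e-12 by edgeR). In LIM1215-R2 the mean was 13.2 ± 0.477 CPM, a ratio of 0.503 (log2 -0.99, SE 0.09, adjusted p = 3.56e-10 by edgeR). The difference between the resistant lines was 0.37 on the log2 scale (95% interval 0.16 to 0.57) and did not pass (adjusted p = 0.0121 by edgeR), and it passed with total counts in place of TMM. Per kilobase, DLL4 made up 7.55% ± 0.201 (SD, n = 3) of the RNA of JAG1, JAG2 and DLL4 in LIM1215-parental, compared with 3.61% ± 0.192 in LIM1215-R1 and 4.64% ± 0.277 in LIM1215-R2. JAG1 had a share of 55.5% ± 1.75, 54.4% ± 1.96 and 53.5% ± 2.47.

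DLL1, the Delta ligand at chr6:170282206-170291078 on the minus strand, was listed with 0 counts in all 9 libraries, which would allow up to 0.0602, 0.0622 and 0.0621 CPM over the libraries of the parental, R1 and R2 lines for counting error alone. However, an alternate sequence of chromosome 6 in hg38 matches 99.4% of the DLL1 transcript, and reads that align to 2 places are often not counted. FAM120B, a neighbouring gene with a match of 99.8% on the same alternate sequence, had 0 to 7 counts per library. PSMB1, TBP and PDCD2, neighbours with matches of 10.7% or less, had 1708 to 2760, 296 to 461 and 1400 to 1914 counts per library. These neighbours were picked after the 0 for DLL1 was seen. NOTCH4 and HES5 of the wider list and the marker KRT20 were also matched over at least 80% of their transcripts and were at 0. Whether the authors' genome index held the alternate sequences is not given in the sources used here, its part in the 0 was not tested, and the level of DLL1 cannot be read from these files.

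HES1 encodes a transcriptional repressor that is switched on directly by Notch, and lies at chr3:194136148-194138732 on the plus strand. It was at 15.4, 13.9 and 15.7 CPM in LIM1215-parental, 21.8, 23.5 and 23.8 CPM in LIM1215-R1 and 17.1, 15.9 and 19.1 CPM in LIM1215-R2. The LIM1215-R1 libraries were the highest, and the LIM1215-R2 libraries lay between the other lines without overlap. HES1 rose 1.53-fold in LIM1215-R1 (log2 0.61, SE 0.09, adjusted p = 3.74e-06 by edgeR). The 1.15-fold value in LIM1215-R2 did not pass (log2 0.21, 95% interval 0.01 to 0.40, adjusted p = 0.0996 by edgeR). HES1 was lower in LIM1215-R2 than in LIM1215-R1 (log2 -0.41, SE 0.09, adjusted p = 0.00219 by edgeR). That call was lost without replicate 3 of LIM1215-R1 and without replicate 1 or 2 of LIM1215-R2, with an adjusted p of up to 0.0297.

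NRARP, a small ankyrin-repeat protein that binds the Notch complex, promotes turnover of the intracellular domain and is itself a Notch target, lies at chr9:137299631-137302271 on the minus strand. It was at 129, 132 and 124 CPM in LIM1215-parental, 95.4, 98.3 and 94.2 CPM in LIM1215-R1 and 86.5, 84.3 and 86.0 CPM in LIM1215-R2. The 3 lines were fully separate. NRARP fell by 0.42 on the log2 scale in LIM1215-R1 (SE 0.05, adjusted p = 1.26e-07 by edgeR) and by 0.59 in LIM1215-R2 (SE 0.05, adjusted p = 3.16e-10). The difference between the resistant lines was -0.16 (95% interval -0.27 to -0.06, adjusted p = 0.0339 by edgeR) and did not pass. In LIM1215-R1 the 2 targets moved in opposite directions, with HES1 higher and NRARP lower than in LIM1215-parental.

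HEY1, a target related to the HES genes, had 2 counts over the 3 libraries of LIM1215-parental, 3 over those of LIM1215-R1 and 1 over those of LIM1215-R2. These are at or below the floor of 3 counts over a line, so no fold change is given, and a difference was not detectable at this depth.

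**Figure D2:**
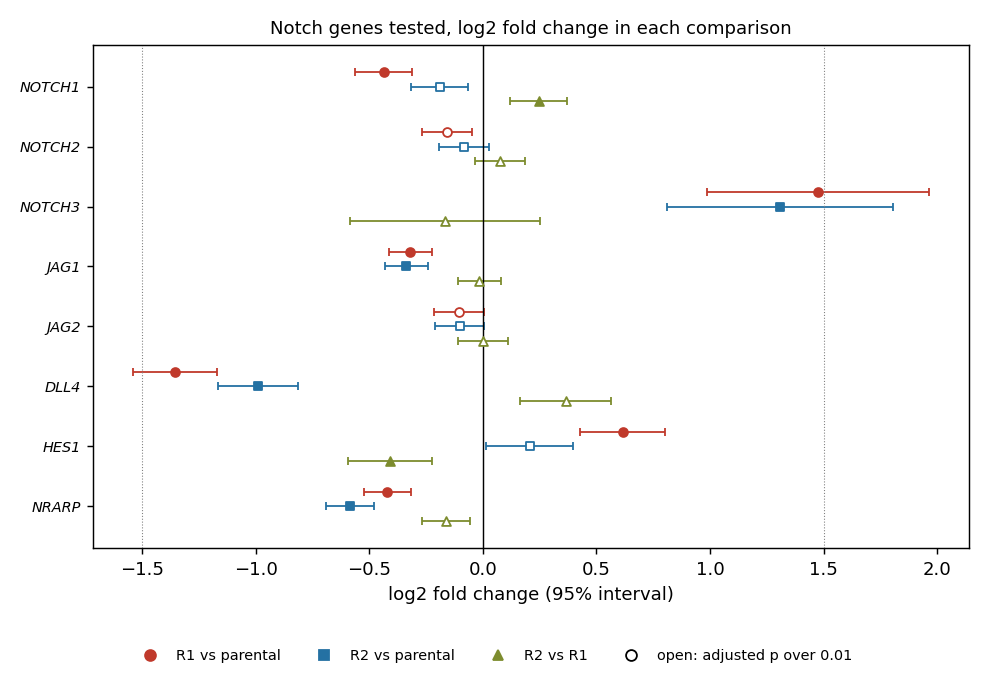
Log2 fold change (horizontal axis) with its 95% interval for the 8 Notch genes tested, for LIM1215-R1 against LIM1215-parental (circles), LIM1215-R2 against LIM1215-parental (squares) and LIM1215-R2 against LIM1215-R1 (triangles). Filled symbols have an adjusted p of 0.01 or less, dotted lines mark 1.5 in either direction, and NOTCH3 (1.48 and 1.31) and DLL4 (-1.36 and -0.99) lie farthest from 0.

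The wider pathway was followed through 60 further genes, listed by role with earlier results of these data known, of which 52 were tested. In LIM1215-R1 31 passed (9 higher, 22 lower, 6 DEGs). The shares were 27.3% of all genes tested (14.0% higher, 13.4% lower, 5.14% DEGs) and 40.6% of those with a mean of at least 10 CPM. In LIM1215-R2 26 passed (8 higher, 18 lower, 6 DEGs), where 23.8% of all genes did (12.3% higher, 11.6% lower, 4.82% DEGs) and 35.1% of the abundant ones. Between the resistant lines 8 passed (6 higher and 2 lower in LIM1215-R2, 1 DEG). The shares there were 7.16% of all genes (3.39% higher, 3.77% lower, 0.764% DEGs) and 11.1% of the abundant ones. The median log2 fold change of the 52 was -0.17, -0.13 and 0.00 in the 3 comparisons, and it kept these values with genes at 0 in a line set to their bound.

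HES1 belongs to the basic helix-loop-helix repressors of the HES and HEY type. Of 7 further genes of this family on the list, 6 were tested. In LIM1215-R1 4 passed as higher and 1 as lower, where 14.0% and 13.4% of all genes tested did. In LIM1215-R2 5 passed as higher and 1 as lower, where 12.3% and 11.6% of all genes did. HES2, HES4 and HES6 are given here because they complete the family, and were picked after their values were seen.

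HES7, known as an oscillator of the segmentation clock in embryos, was at 0.059, 0.144 and 0.21 CPM in LIM1215-parental (1, 2 and 4 counts). It reached 2.58, 3.76 and 4.50 CPM in LIM1215-R1 and 7.13, 4.95 and 6.86 CPM in LIM1215-R2. All resistant libraries were above the parental ones and LIM1215-R2 was above LIM1215-R1. The log2 fold change was 4.61 in LIM1215-R1 (SE 0.39, adjusted p = 2.16e-10 by edgeR) and 5.42 in LIM1215-R2 (SE 0.35, adjusted p = 9.3e-13). Its size rests on 7 parental counts. LIM1215-R2 was 1.75-fold above LIM1215-R1 (adjusted p = 0.00522 by edgeR), a call that was lost with DESeq2 and without replicate 1 or 2 of LIM1215-R1 or replicate 1 or 3 of LIM1215-R2, with an adjusted p of up to 0.0581.

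HES4, a HES1-like gene of the human genome, was at 10.7, 12.1 and 9.40 CPM in LIM1215-parental, 27.8, 33.0 and 29.5 CPM in LIM1215-R1 and 24.4, 25.5 and 26.5 CPM in LIM1215-R2. The parental libraries were well below all others. HES4 rose by 1.4999 on the log2 scale in LIM1215-R1, just under the DEG threshold (SE 0.10, adjusted p = 7.3e-13 by edgeR), and by 1.26 in LIM1215-R2 (SE 0.10, adjusted p = 3.97e-11). The LIM1215-R1 value lay past that threshold in 11 alternatives, among them DESeq2, other filters and the fits without replicate 1 or 2 of LIM1215-parental, 1 or 3 of LIM1215-R1 or 1 or 2 of LIM1215-R2, and reached 1.59.

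HES2 rose 1.76-fold in LIM1215-R1 and 1.42-fold in LIM1215-R2, from a mean of 34.8 ± 2.45 CPM (SD, n = 3) in LIM1215-parental to 61.0 ± 3.44 and 49.3 ± 3.09. HES6, a member that antagonises HES1, rose 1.76-fold and 1.48-fold, from 18.9 ± 2.21 CPM to 33.2 ± 1.83 and 27.9 ± 2.45. These 4 calls held in all 19 alternatives. HES2 was also lower in LIM1215-R2 than in LIM1215-R1 (log2 -0.31, adjusted p = 0.00216 by edgeR), which was lost without replicate 2 of LIM1215-R1 and without replicate 1 or 2 of LIM1215-R2 (adjusted p of up to 0.0278).

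HEY2, a close relative of HEY1 known from heart and arterial development, was at 2.12, 1.88 and 2.05 CPM in LIM1215-parental, 2.02, 1.76 and 1.56 CPM in LIM1215-R1 and 8.62, 7.68 and 8.42 CPM in LIM1215-R2. LIM1215-R2 stood apart, and the other lines overlapped. HEY2 rose 4.06-fold in LIM1215-R2 against LIM1215-parental (log2 2.02, SE 0.16, adjusted p = 7.88e-11 by edgeR) and was 4.61-fold above LIM1215-R1 (log2 2.20, SE 0.17, adjusted p = 2.66e-10). In LIM1215-R1 its log2 fold change was -0.18 (95% interval -0.61 to 0.25). HEY2 was the 1 DEG of the wider list between the resistant lines.

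HEYL, the third HEY gene, moved the other way. It was at 1.18, 0.722 and 0.945 CPM in LIM1215-parental (20, 10 and 18 counts), 0, 0.125 and 0.125 CPM in LIM1215-R1 and 0.178, 0.124 and 0 CPM in LIM1215-R2. Only 4 and 5 counts remained in the resistant lines. The log2 fold change was -3.41 in LIM1215-R1 (SE 0.66, adjusted p = 0.000147 by edgeR) and -3.12 in LIM1215-R2 (SE 0.63, adjusted p = 0.000281).

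**Figure D3:**
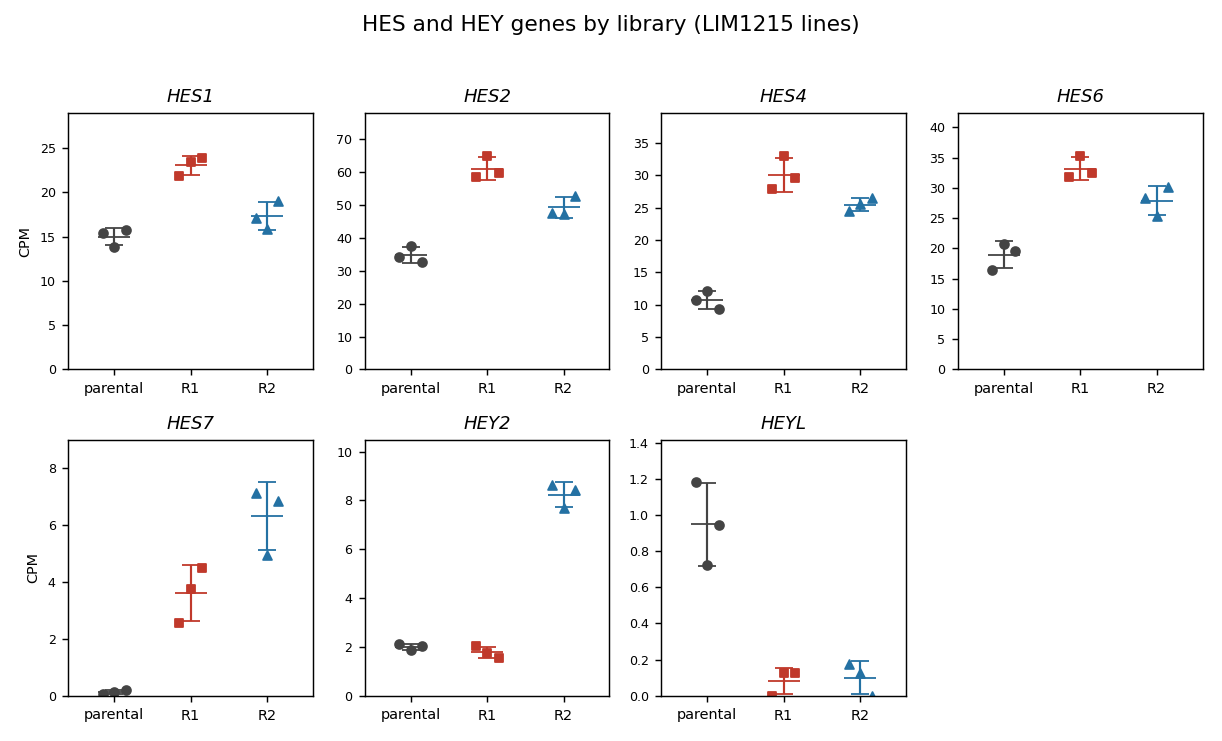
CPM (vertical axes, each from 0) of the 7 HES and HEY genes tested, with 1 point per library, a bar at the mean and error bars of 1 SD (n = 3 libraries per line). HES1, HES2, HES4 and HES6 have their highest means in LIM1215-R1, HEY2 is raised to 7.68 CPM or more in LIM1215-R2, and HEYL is at 0.722 CPM or more in LIM1215-parental and at 0.178 CPM or less in the resistant libraries.

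Promoter sequences of 5 of these target genes are shown because they moved in different directions, so their directions say nothing of the motif. RefSeq sequences (GRCh38.p14) of the 250 bases before the annotated start were searched for TGGGAA, the core that RBPJ binds, on both strands. Of 27305 promoters 21.1% held it at least once and 2.92% at least 2 times. Of the 8 Notch genes with an entry only HES1 held it, and of 48 genes of the wider list 11 did. Capitals mark the core, which reads TTCCCA where it lies on the opposite strand.

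HES1, chr3:194135898-194136147, plus strand: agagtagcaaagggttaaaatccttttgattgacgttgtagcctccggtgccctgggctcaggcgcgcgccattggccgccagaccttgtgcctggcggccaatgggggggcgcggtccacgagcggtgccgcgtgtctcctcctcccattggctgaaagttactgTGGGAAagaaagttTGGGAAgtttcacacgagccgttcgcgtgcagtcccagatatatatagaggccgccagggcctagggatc

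HES4, chr1:1000098-1000347, minus strand: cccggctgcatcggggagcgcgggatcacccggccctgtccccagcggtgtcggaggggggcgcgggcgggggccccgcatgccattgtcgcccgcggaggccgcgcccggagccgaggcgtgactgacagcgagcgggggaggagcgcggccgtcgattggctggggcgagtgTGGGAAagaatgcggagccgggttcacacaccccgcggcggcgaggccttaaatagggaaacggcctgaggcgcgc

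HEY2, chr6:125749382-125749631, plus strand: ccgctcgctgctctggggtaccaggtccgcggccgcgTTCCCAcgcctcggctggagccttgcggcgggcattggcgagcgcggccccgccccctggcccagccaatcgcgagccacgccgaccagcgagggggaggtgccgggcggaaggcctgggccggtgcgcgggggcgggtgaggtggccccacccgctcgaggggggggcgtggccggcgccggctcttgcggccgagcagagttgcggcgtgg

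HEYL, chr1:39639644-39639893, minus strand: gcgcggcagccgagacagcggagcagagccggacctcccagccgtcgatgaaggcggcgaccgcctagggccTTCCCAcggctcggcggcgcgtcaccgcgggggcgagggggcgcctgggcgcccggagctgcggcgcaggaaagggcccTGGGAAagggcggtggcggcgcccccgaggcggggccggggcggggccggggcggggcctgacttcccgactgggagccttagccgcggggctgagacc

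NRARP, chr9:137302272-137302521, minus strand: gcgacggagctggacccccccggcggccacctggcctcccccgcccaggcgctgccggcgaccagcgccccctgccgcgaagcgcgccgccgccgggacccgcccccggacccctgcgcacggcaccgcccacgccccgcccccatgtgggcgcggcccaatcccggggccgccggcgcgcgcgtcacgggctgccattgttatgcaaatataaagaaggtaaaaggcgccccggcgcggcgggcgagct

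In HES1 the 2 copies began 84 and 70 bases before the start, both in forward direction, and in HES4 the single copy began at 76 bases. HEY2 held 1 copy, in reverse direction, 213 bases before the start, and HEYL held 2, at 178 bases in reverse and at 99 in forward direction. The NRARP window held none, and these letters may lie outside it.

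Among the genes that modify and cleave the receptor before it reaches the surface, 4 of 6 passed in LIM1215-R1 (2 higher, 2 lower) and 2 in LIM1215-R2 (both lower). The shares of all genes tested were 27.3% and 23.8%. LFNG encodes lunatic fringe, which adds sugars that tune the response of Notch to its ligands. It was at 60.1, 66.2 and 61.7 CPM in LIM1215-parental, 26.7, 24.8 and 26.2 CPM in LIM1215-R1 and 35.2, 33.9 and 37.4 CPM in LIM1215-R2. The lines were fully separate, as for DLL4, with LIM1215-R1 lowest. The log2 fold change was -1.27 in LIM1215-R1 (SE 0.07, adjusted p = 1.74e-14 by edgeR), -0.82 in LIM1215-R2 (SE 0.07, adjusted p = 8.18e-11) and 0.45 between the resistant lines (SE 0.07, adjusted p = 6.17e-05). POFUT1, which adds the fucose that fringe extends, fell by 0.59 and 0.64 on the log2 scale, from 151 ± 5.24 CPM (SD, n = 3) to 101 ± 2.26 and 97.1 ± 2.7.

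Of the 3 genes tested for ligand endocytosis, none passed in LIM1215-R1, where 27.3% of all genes tested did. Only NEURL1B, a ubiquitin ligase for ligands, passed in LIM1215-R2 against LIM1215-parental and against LIM1215-R1, where 23.8% and 7.16% of all genes did. It was at 27.3, 28.5 and 30.0 CPM in LIM1215-parental, 29.2, 28.9 and 29.7 CPM in LIM1215-R1 and 22.0, 22.5 and 22.3 CPM in LIM1215-R2. The LIM1215-R2 libraries were the lowest, with a log2 fold change of -0.36 against LIM1215-parental (adjusted p = 0.000341 by edgeR) and -0.39 against LIM1215-R1 (adjusted p = 0.000559).

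Among the genes for the sheddases and gamma-secretase, ADAM10 and ADAM17, the proteases of the first cut, fell by 0.30 and 0.33 on the log2 scale in LIM1215-R1 and by 0.17 and 0.37 in LIM1215-R2. The ADAM10 call in LIM1215-R2 (adjusted p = 0.00572 by edgeR) was lost in 5 of the fits without 1 library, namely replicates 1 and 3 of LIM1215-parental, 3 of LIM1215-R1 and 2 and 3 of LIM1215-R2 (adjusted p of up to 0.0357). The ADAM17 call in LIM1215-R1 (adjusted p = 0.000954) was lost without replicate 1 of LIM1215-parental (adjusted p = 0.0105). NCSTN, the nicastrin subunit of gamma-secretase, did not pass (log2 -0.16 and -0.10, adjusted p = 0.0189 and 0.144). APH1B, one of the alternative APH1 subunits, was at 3.83, 5.49 and 7.77 CPM in LIM1215-parental and between 0.816 and 1.55 CPM in the resistant libraries. No resistant library reached the lowest parental one. The log2 fold change was -2.38 in LIM1215-R1 (SE 0.26, adjusted p = 3.5e-08) and -2.13 in LIM1215-R2 (SE 0.26, adjusted p = 1.34e-07).

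Of 7 genes for receptor trafficking and turnover, 2 passed in each resistant line, both lower, where 27.3% and 23.8% of all genes tested passed. NUMB, an endocytic adaptor that inhibits Notch, fell by 0.38 and 0.43 on the log2 scale, and DTX4, a Deltex ubiquitin ligase, fell by 0.39 and 0.62.

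In the nuclear activation complex, 6 of 7 genes passed in LIM1215-R1 (1 higher, 5 lower) and 3 in LIM1215-R2 (1 higher, 2 lower). The shares were 27.3% and 23.8% of all genes tested, and 40.6% and 35.1% of those with a mean of at least 10 CPM. RBPJ, the DNA-binding partner of Notch, was at 97.7, 93.7 and 96.8 CPM in LIM1215-parental, 75.6, 71.7 and 77.8 CPM in LIM1215-R1 and 87.8, 90.9 and 77.5 CPM in LIM1215-R2. The parental libraries were the highest, and 1 library of LIM1215-R2 lay within the LIM1215-R1 range. RBPJ fell by 0.36 on the log2 scale in LIM1215-R1 (SE 0.06, adjusted p = 2.37e-05 by edgeR), and the LIM1215-R2 value of -0.17 did not pass (adjusted p = 0.0284). Of the Mastermind coactivators, MAML3 fell and MAML2 rose. MAML1, outside the rule for named genes, was the most abundant of them, with 17.6 CPM per kilobase in LIM1215-parental against 3.38 for MAML3 and 0.935 for MAML2. It was lower in both resistant lines without overlap, at 101 ± 3.11 CPM (SD, n = 3) in LIM1215-parental against 85.9 ± 3.97 in LIM1215-R1 and 85.9 ± 1.99 in LIM1215-R2. MAML3 fell by 1.14 and 1.04 on the log2 scale, from 23.1 ± 1.19 CPM (SD, n = 3) to 10.5 ± 1.22 and 11.3 ± 0.978. MAML2 rose by 0.81 and 0.64, from 6.66 ± 1.24 CPM to 11.6 ± 1.45 and 10.3 ± 0.825.

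Of 7 co-repressors, 5 passed in LIM1215-R1 and 4 in LIM1215-R2, all lower. Among all genes tested, 13.4% and 11.6% passed as lower in these comparisons. All 7 had a mean of at least 10 CPM, a class in which 40.6% and 35.1% passed in either direction. NCOR1, a scaffold for histone deacetylases, fell from 263 ± 7.74 CPM (SD, n = 3) to 188 ± 2.65 and 221 ± 5.93, and LIM1215-R2 stood above LIM1215-R1 (log2 0.24, SE 0.04, adjusted p = 0.000471 by edgeR). CIR1, which links RBPJ to deacetylases, fell by 0.32 and 0.47 on the log2 scale. The LIM1215-R1 value of CIR1 (adjusted p = 0.0059) did not pass in 7 alternatives, among them DESeq2 and the fits without replicate 1 or 3 of LIM1215-parental or replicate 2 or 3 of LIM1215-R1 (adjusted p of up to 0.0483).

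Of the 2 other ligands and receptors tested, only DNER, a non-canonical ligand, passed, in LIM1215-R1, where 27.3% of all genes tested passed. DNER had 6, 3 and 5 counts in LIM1215-parental, 0 in LIM1215-R1 and 0, 3 and 0 in LIM1215-R2. Against 3 counts over the line it was at least 4.52-fold lower in LIM1215-R1, and the call (adjusted p = 0.00712 by edgeR) did not pass with DESeq2 or without replicate 1 or 3 of LIM1215-parental or any replicate of LIM1215-R1 (adjusted p of up to 0.0243).

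Of 3 other targets, 2 passed in each resistant line (1 higher, 1 lower), where 27.3% and 23.8% of all genes tested did. CCND1, the cyclin D1 gene, rose by 0.44 and 0.51 on the log2 scale, and OLFM4, a Notch-dependent gene of crypt stem cells, fell. OLFM4 was at 0.708, 0.939 and 1.47 CPM in LIM1215-parental, 0.123, 0.251 and 0.313 CPM in LIM1215-R1 and 0.178, 0.0619 and 0 CPM in LIM1215-R2. Its log2 fold change was -2.17 in LIM1215-R1 (SE 0.52, adjusted p = 0.0015 by edgeR) and -3.55 in LIM1215-R2 (SE 0.63, adjusted p = 5.52e-05), from 11 and 4 counts in the resistant lines against 53. The LIM1215-R1 call was lost without replicate 3 of LIM1215-parental (adjusted p = 0.0281).

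ATOH1, the secretory fate factor that HES1 is known to repress, was at 2.12, 1.88 and 1.73 CPM in LIM1215-parental (95 counts in all) and had 0 counts in all 6 resistant libraries. Against 3 counts over each line, it was lower by at least 30.6-fold in LIM1215-R1 and by at least 30.7-fold in LIM1215-R2 (adjusted p = 2.64e-08 and 2.59e-08 by edgeR). GFI1 and SPDEF, which act after ATOH1, had 8 counts or fewer per library and did not pass. No alternate sequence covered ATOH1.

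**Figure D4:**
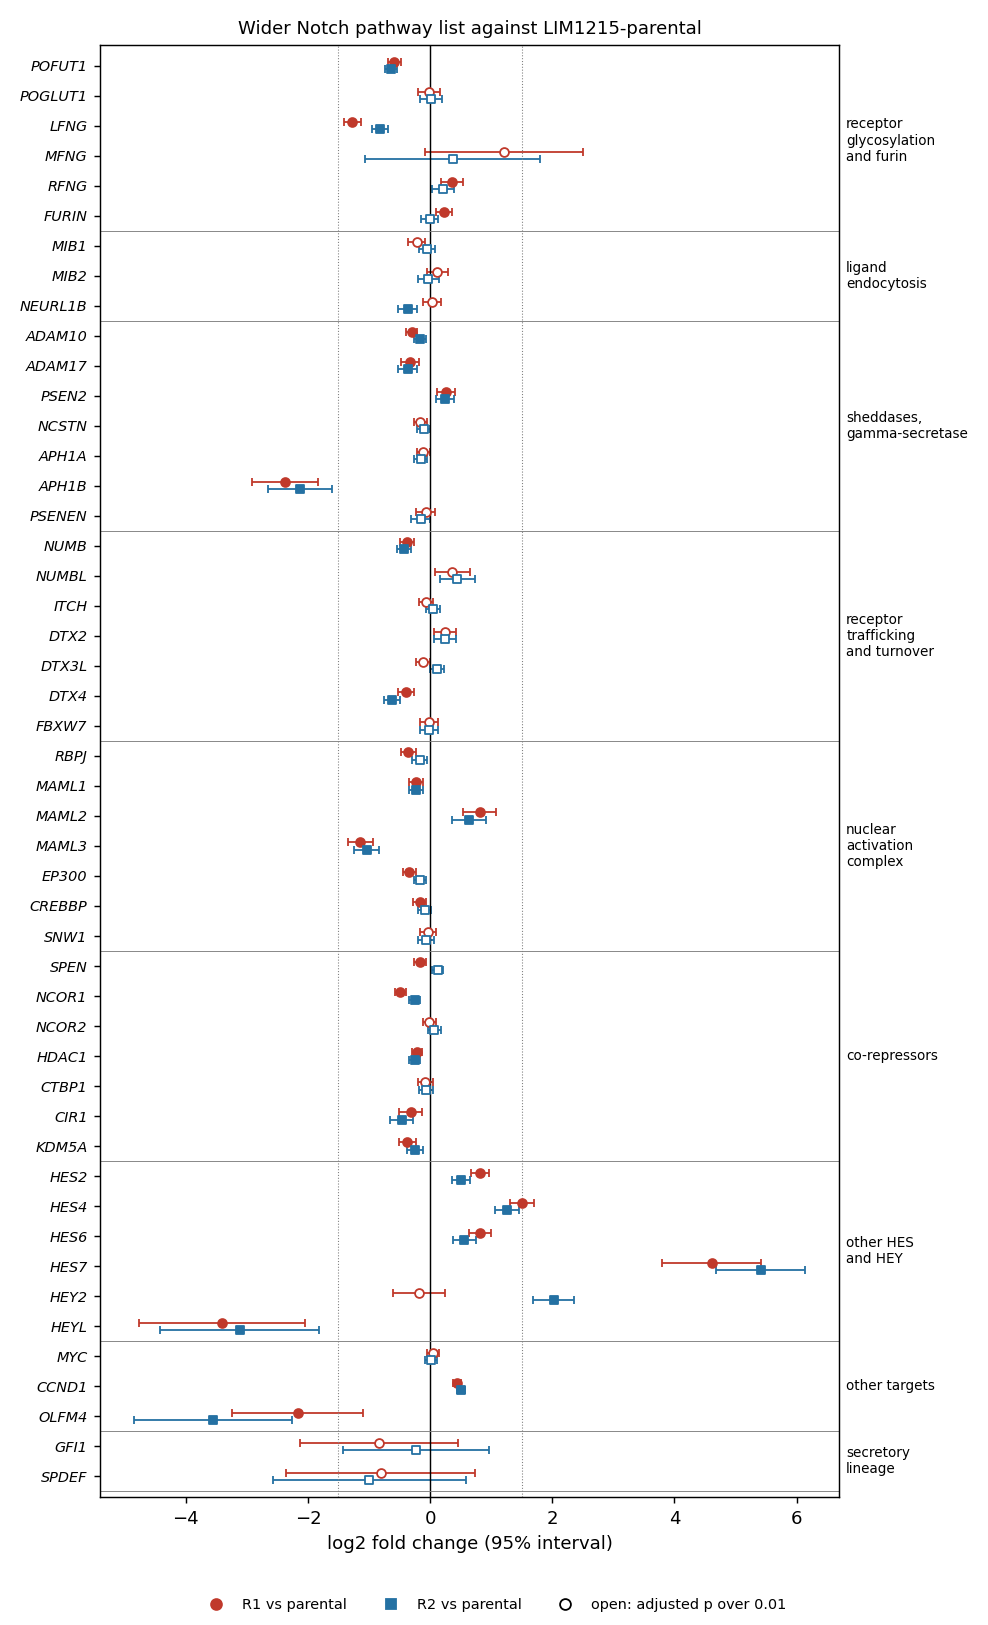
Log2 fold change (horizontal axis) with its 95% interval for 48 genes of the wider list against LIM1215-parental, in LIM1215-R1 (circles) and LIM1215-R2 (squares), grouped by role. Filled symbols have an adjusted p of 0.01 or less and dotted lines mark 1.5 in either direction. DNER, DLL3 and ATOH1, with 0 counts in a resistant line, are not drawn, and HES7 (4.61 and 5.42) lies farthest to the right.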

How the data were processed

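Stranded poly(A) libraries, 3 for each of the parental, R1 and R2 lines of LIM1215, were sequenced from both ends. The authors used STAR for alignment to hg38 and HTSeq 0.9.1 for reverse-strand gene counts, and deposited these raw counts as 1 table per library, with no normalization. The gene annotation is not given in the sources used here. Every row names a gene.

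The analysis used edgeR 4.0.16 in R 4.3.3. Genes whose counts summed to 10 or more were scaled by TMM and fitted in 1 quasi-likelihood model of the 3 lines. P-values were adjusted by Benjamini-Hochberg across every gene in the fit, and calls were made at the study's thresholds for DEGs. The SE of a log2 fold change came from the test statistic. The fit was first tested on simulated data with known changes.

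Fold changes against a line at 0 were computed against 3 counts over the line. Intervals and floors cover counting error or library spread only. Alternatives were other filters, scalings and thresholds, DESeq2 1.42.0 with and without lfcShrink (apeglm 1.24.0), 6 libraries only, the replicate number as a block and each library left out. Transcripts of GENCODE release 44 were aligned to alternate sequences of hg38 with minimap2 2.31.

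The members and gene lists were chosen with earlier results of these data known. Named from the wider list were all DEGs, the 2 genes with the largest change among those that passed in each role, and RBPJ, ADAM10, ADAM17 and NCSTN. A single gene of the wider list is included in its counts but is not reported here. Replicates within a line differed by more than sampling noise (chi-square per degree of freedom from 1.82 to 6.04).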

Additional observations from a re-analysis of the deposited data

Results flagged for a closer look

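The contrast of LIM1215-R2 with LIM1215-R1 is the difference between their changes against the shared LIM1215-parental libraries, tested directly in edgeR's model. It passed for 10 of the genes followed here, each with 3 libraries per line. These were 2 of the 8 Notch genes tested and 8 of the 52 of the wider list. By comparison, 7.16% of all genes tested passed, and 11.1% of those with a mean of at least 10 CPM. Higher in LIM1215-R2 were NOTCH1 (log2 0.25), LFNG (0.45), DTX3L (0.22), SPEN (0.28), NCOR1 (0.24), HES7 (0.81) and HEY2 (2.20), and lower were HES1 (-0.41), NEURL1B (-0.39) and HES2 (-0.31). DTX3L, a Deltex-like ubiquitin ligase, and SPEN, a co-repressor bound by RBPJ, fall outside the rule for named genes and are given because this contrast passed (adjusted p = 0.00741 and 0.000116 by edgeR). Among the 10, HEY2 had the smallest adjusted p (2.66e-10 by edgeR).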

How the results depend on the processing

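Of 24 changes of the 8 Notch genes, 18 kept their side of the threshold in all 19 alternatives. No change turned its direction where it passed in the main analysis or in the alternative. JAG1 and JAG2 between the resistant lines, which did not pass, changed sign in some alternatives. Their log2 fold changes ran from -0.06 to 0.02 and from -0.04 to 0.03. The count between the resistant lines (2 genes) was 1 with at least 10 counts in every library, 4 at an adjusted p of 0.05 and 0 to 2 with a library left out. It was 0 without replicate 3 of LIM1215-R1 or replicate 1 of LIM1215-R2, where 4 genes had an unadjusted p under 0.05 by edgeR. It was 1 without replicate 1 of LIM1215-R1 or replicate 2 or 3 of LIM1215-R2. DEGs among the 8 genes were 0 to 1 in LIM1215-R1 with a library left out (NOTCH3, without replicate 1 of LIM1215-R1), and 2 in LIM1215-R1 and 1 in LIM1215-R2 at a log2 fold change of 1. The wider list gave 5 to 9 genes between the resistant lines (8 in the main analysis) with a library left out, 5 without replicate 2 of LIM1215-R1 or replicate 1 of LIM1215-R2, and 12 at an adjusted p of 0.05. The cause was not tested.

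Replicate numbers are shared in the labels, but the deviations of same-numbered libraries correlated by only -0.02 to 0.10, none over 0.1. With the replicate number as a block, 7, 5 and 3 Notch genes passed against 6, 4 and 2, and 32, 30 and 11 of the wider list against 31, 26 and 8, while calls over all genes rose to 5841, 5197 and 2044 from 5222, 4554 and 1368. The Notch genes added were NOTCH2 in LIM1215-R1, NOTCH1 in LIM1215-R2 and DLL4 between the resistant lines (adjusted p = 0.00384, 0.00188 and 0.00752 by edgeR). Over all genes, 1368 passed between the resistant lines, 743 without replicate 1 of LIM1215-R2, 772 without replicate 2 of LIM1215-R2, 860 without replicate 3 of LIM1215-R1, and 2478 at an adjusted p of 0.05. Depth limits HEY1, HEYL, OLFM4, DNER and parental HES7, which rest on few counts.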
